A study of Mus musculus with 23 samples.

Results

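The p65 and LXRβ binding sites around 3 genes for inflammatory effector enzymes, Nos2, Ptgs2 and Irg1 (listed as Acod1 in RefSeq), were examined in mouse macrophages. Members were all listed peaks whose centre lay in one of 3 windows on mouse build mm9: chr11:78690000-78820000 for Nos2, chr1:151890000-152010000 for Ptgs2 and chr14:103400000-103500000 for Irg1. They numbered 55 of the 58278 peaks of 5 lists, with 16 in the Nos2, 8 in the Ptgs2 and 31 in the Irg1 window. The windows were set as positions, and membership used no height or tag count. They were, however, chosen with earlier results of these data known.

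Thioglycollate-elicited peritoneal macrophages came from male C57Bl/6 mice aged 6 to 8 weeks. Both genotypes carried floxed NCoR alleles. Wild type cells were NCoR fl/fl Lys M-Cre -/- and knockout cells NCoR fl/fl Lys M-Cre +/-, so the knockouts also carry the Cre transgene, which is driven by the lysozyme M gene of myeloid cells. p65 was mapped by ChIP-seq in each genotype without treatment or 1 h after Kdo2-Lipid A (KLA) was added at 100 ng/ml. KLA is a lipid A that activates the receptor TLR4. LXRβ was mapped in RAW264.7, a mouse macrophage line, which carried biotin-tagged LXRβ and received GW3965, an LXR agonist, at 1 µM for 2 h. Each group was 1 sample, so no difference has a replicate check and no test between groups was run. All intervals are at 95%, and none covers variation between animals or libraries. Those of heights, sums and their ratios cover the counting of tags only, and are too narrow where tags are not independent molecules. Those of shares and of median ratios treat peaks or sites as independent draws, which neighbouring peaks of a window may not be. The other 18 of the 23 samples were not analysed here, and peak lists measure neither RNA, cell type markers nor NCoR itself.

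Signals from TLR4 release NF-κB from its cytoplasmic inhibitors, and its subunit p65 then enters the nucleus and binds enhancers and promoters of inflammatory genes. Nos2 is the inducible nitric oxide synthase, which makes nitric oxide from arginine. Ptgs2 is the inducible cyclooxygenase, which turns arachidonic acid into the precursor of prostaglandins. Irg1 is the mitochondrial enzyme that makes itaconate from cis-aconitate, an intermediate of the citric acid cycle. NCoR is a corepressor that nuclear receptors and other factors recruit to DNA, and LXRβ is a receptor for oxysterols that controls cholesterol and fatty acid genes.

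Promoter sequence is shown for the genes of the set that were matched by symbol, 2 of 3, because p65 binding near them is the measurement at issue. These are the 250 bases before the RefSeq start site on build GRCm38.p6, 5′ to 3′ on the strand of the gene, with motif matches in capitals.
Ptgs2: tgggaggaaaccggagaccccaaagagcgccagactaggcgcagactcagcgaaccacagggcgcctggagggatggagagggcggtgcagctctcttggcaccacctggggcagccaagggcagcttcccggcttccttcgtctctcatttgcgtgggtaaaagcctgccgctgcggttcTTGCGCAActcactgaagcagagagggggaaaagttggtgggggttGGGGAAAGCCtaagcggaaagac
Acod1: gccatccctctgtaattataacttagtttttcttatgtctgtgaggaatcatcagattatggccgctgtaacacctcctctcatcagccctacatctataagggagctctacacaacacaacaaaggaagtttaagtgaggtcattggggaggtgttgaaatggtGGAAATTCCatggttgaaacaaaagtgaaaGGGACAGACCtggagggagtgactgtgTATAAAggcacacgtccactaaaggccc

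Motifs were searched on both strands. A loose NF-κB pattern (3 G, any 5 bases, 2 C) matched once in each promoter, from -23 to -14 in Ptgs2 and from -55 to -46 in Acod1, and 45.8% of 32851 promoters of this length hold it. The stricter NF-κB consensus, held by 3.9%, matched neither. Acod1 also has GGAAATTCC from -85 to -77, a match to the palindrome GGAANTTCC that 0.813% of promoters hold, and TATAAA from -28 to -23 (12.4% of promoters). Ptgs2 has TTGCGCAA from -69 to -62, which matches the C/EBP pattern TTGCNNAA (9.56%). Neither promoter held the AP-1 pattern TGANTCA (6.75%) or the DR4 element of LXR (0.0152%), and GGAANTTCC was added to the search after the Acod1 sequence had been read. The promoters and the peaks are on different builds, so no peak was placed on a promoter, and peaks are named by position and window.

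The libraries held 777228 and 786121 tags untreated and 2120392 and 1673506 tags after KLA (wild type and knockout), and 11758634 for LXRβ. Height is the normalized tag count given by the authors, scaled to 10000000 tags a library. A single tag was worth 12.9 and 12.7 in the untreated wild type and knockout lists, 4.72 and 5.98 in the KLA lists, and 0.910 in the LXRβ list. The lowest listed heights were 64.3 and 63.6 in the untreated libraries, against 18.9 and 29.9 after KLA. The 18.9 of wild type KLA lies under the 23.6 of that list's own threshold of 5 tags. Listed peaks of fewer than 5 tags are in none of the tag classes used below. The KLA lists used a fixed peak width, of 132 bp for wild type and 144 bp for knockout.

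The comparison of treatments asked where p65 was bound near these genes before and after KLA. Untreated wild type cells had 0 of their 702 listed peaks in the 3 windows and untreated knockout cells had 1 of 2227. After KLA, wild type cells had 29 of 30021 and knockout cells 23 of 22585. Untreated peaks were few over the whole genome, so 0 and 1 are not read as a trait of these windows. The Irg1 window held the most, with 15 wild type and 14 knockout peaks, followed by the Nos2 window with 10 and 6 and the Ptgs2 window with 4 and 3. Knockout and wild type thus had the same order of windows.

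Of the 29 wild type KLA peaks, 0 overlapped a wild type untreated peak (exact Clopper-Pearson interval 0 to 11.9%), where the share over the whole list was 1.77%. Of the 23 knockout KLA peaks, 0 overlapped a knockout untreated peak (0 to 14.8%), against 4.08% over the list. Untreated peaks were rare at KLA sites in general, so these zeros lie near the background. The depth of the untreated libraries limits them further. Of the wild type KLA peaks 15, and of the knockout ones 9, were lower than the lowest height that the untreated library of their genotype could list. At the other 14 wild type and 14 knockout KLA peaks, an untreated peak of equal height would have had enough tags to reach the threshold. Over the whole lists 4.59% of wild type and 6.48% of knockout KLA peaks of such height overlapped an untreated peak. The lowest of these members, 66.0 in wild type and 65.7 in knockout cells, were just above the untreated thresholds of 64.3 and 63.6. Counting error alone could leave equal untreated binding there unlisted. The tallest member was 6.96 times the untreated threshold height in wild type and 5.83 times in knockout cells.

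**Figure D1:**
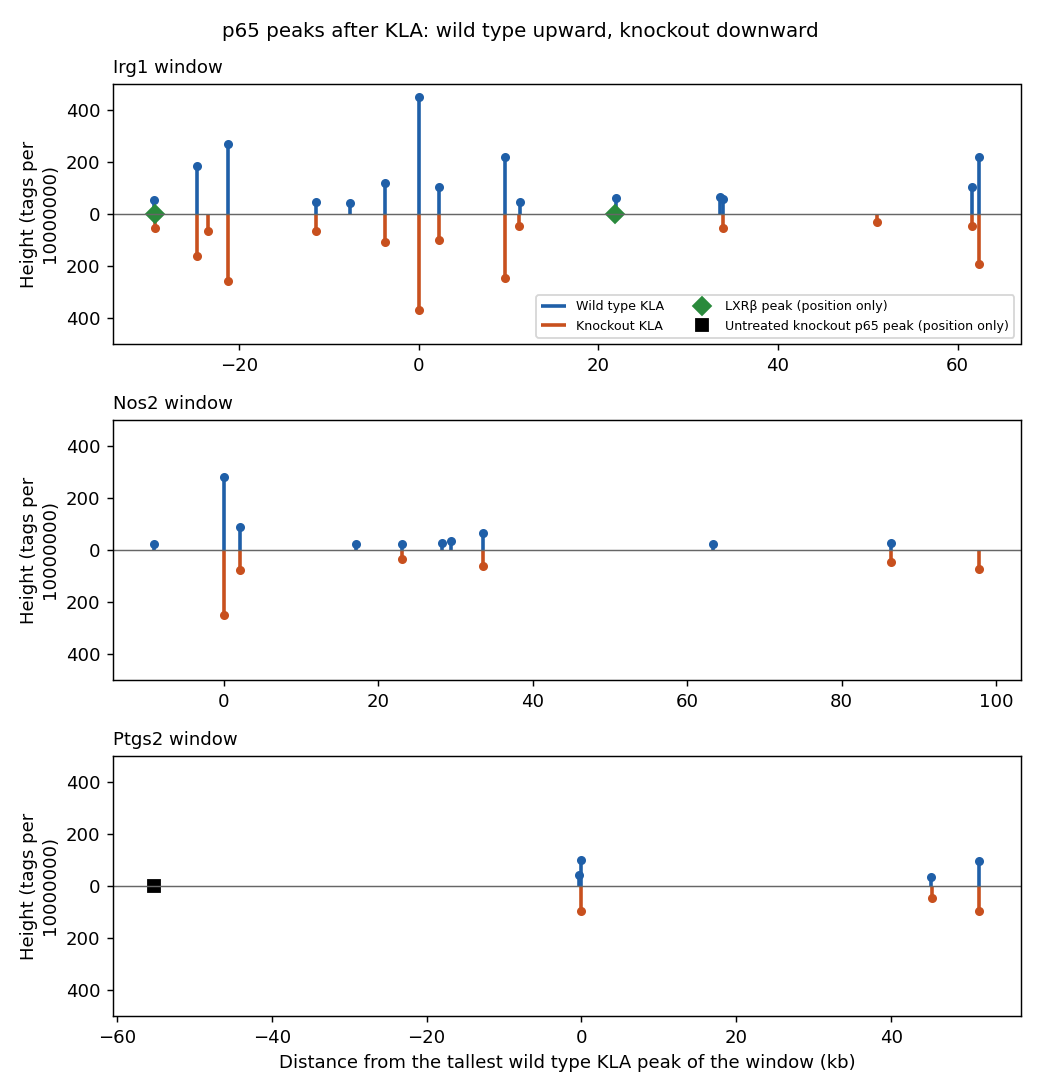
Positions (horizontal axis, distance in kb from the tallest wild type KLA peak of the window) and heights (vertical axis, tags per 10000000, wild type upward and knockout downward) of all p65 peaks listed after KLA in the 3 windows; diamonds and the square mark LXRβ and untreated knockout p65 positions without height. The Irg1 window holds 15 wild type and 14 knockout peaks, Nos2 10 and 6, and Ptgs2 4 and 3.

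The window of Irg1, the itaconate-producing enzyme, had the densest and tallest p65 binding of the 3 windows. Its tallest site, chr14:103436434-103436566, had a height of 448.0 in wild type (95% Poisson interval 362 to 548, 95 tags) and 370.5 in knockout cells (284 to 475, 62 tags) after KLA, and no peak in either untreated list. It ranked 39 of 30021 peaks for wild type and 86 of 22585 for knockout cells. The knockout to wild type ratio was 0.827, with a counting interval of 0.591 to 1.15 that includes 1.

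Another 4 tall Irg1 sites were listed in both genotypes. At chr14:103415195-103415327 wild type cells had a height of 268.8 and knockout cells one of 256.9 (ratio 0.956, 0.628 to 1.45). At chr14:103446050-103446182 it was 216.9 and 245.0, the only one of the 5 that was higher in the knockout (ratio 1.13, 0.723 to 1.76). These intervals all include 1, so neither direction exceeds the counting error. At chr14:103498846-103498978 the heights were 216.9 (wild type) and 191.2 (knockout), with a ratio of 0.882 (0.543 to 1.41). At chr14:103411778-103411910 they were 183.9 and 161.3 (ratio 0.877, 0.516 to 1.47). These 5 sites are spread over nearly the whole window, and no untreated list has a peak at any of them.

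Lower Irg1 sites were also mostly shared. In wild type cells the 15 heights ran from 42.4 to 448.0 with a median of 103.8, and in knockout cells the 14 heights ran from 29.9 to 370.5 with a median of 83.7. The medians of the whole lists were 42.4 and 53.8. Heights of 100 or more were reached by 8 of the 15 wild type and 7 of the 14 knockout Irg1 peaks, and by 9 of 29 and 8 of 23 over all 3 windows, against 12.5% of the wild type and 17.8% of the knockout list. Neighbouring Irg1 peaks were a median of 3864 bp apart in wild type and 4758 bp in knockout cells. Their fold over local signal, the authors' ratio of tag density to that of the surrounding 10000 bp, had a median of 17.4 in wild type and 15.9 in knockout cells, against 26.7 and 28.0 over the lists.

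The lowest knockout to wild type ratio at a shared site was at chr14:103498055-103498187 in the Irg1 window. Wild type cells had 103.8 there (22 tags) and knockout cells 47.8 (8 tags). The ratio of 0.461 was the only one of 0.5 or less among the 20 shared sites (2.43% of all shared sites), and its counting interval of 0.177 to 1.07 includes 1. The tall site at chr14:103498846-103498978, named above, lies next to it, and the ratio there was 0.882.

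The window of Nos2, the nitric oxide synthase, had 1 dominant site. At chr11:78700631-78700763 wild type cells had 278.3 (212 to 359, 59 tags) and knockout cells 251.0 (181 to 339, 42 tags) after KLA, with no untreated peak. This site carried 45.0% of the summed height of the window in wild type and 46.1% in knockout cells. The ratio was 0.902 (0.592 to 1.36). The next, at chr11:78702717-78702849, had 89.6 in wild type and 77.7 in knockout cells (ratio 0.867, 0.394 to 1.85).

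The other Nos2 sites were low. At chr11:78734186-78734318 wild type cells had 66.0 and knockout cells 59.8, with a ratio of 0.906 (0.360 to 2.19). At chr11:78787061-78787193 it was 28.3 and 47.8, and the ratio of 1.69 (0.514 to 5.91) was the highest among the shared sites. At chr11:78723731-78723863 it was 23.6 and 35.9 (ratio 1.52, 0.387 to 6.30). The last 2 rested on 5 to 8 tags in each library, which leaves their ratios open over more than a 10-fold range.

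The window of Ptgs2, the cyclooxygenase, had the fewest KLA peaks of the 3 windows, and none of them reached a height of 100. At chr1:151947095-151947227 wild type cells had 99.0 (61.3 to 151, 21 tags) and knockout cells 95.6 (54.6 to 155, 16 tags), with a ratio of 0.966 (0.471 to 1.94). At chr1:151998421-151998553 it was 94.3 and 95.6 (ratio 1.01, 0.491 to 2.06). At chr1:151992255-151992387 it was 33.0 and 47.8 (ratio 1.45, 0.459 to 4.69). The first 2 are level with each other and between genotypes.

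The tallest wild type heights of the windows, 448.0 for Irg1, 278.3 for Nos2 and 99.0 for Ptgs2, had counting intervals that did not overlap. In knockout cells the intervals of Irg1 (284 to 475) and Nos2 (181 to 339) did overlap, and that of Ptgs2 (54.6 to 155) lay below both.

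**Figure D2:**
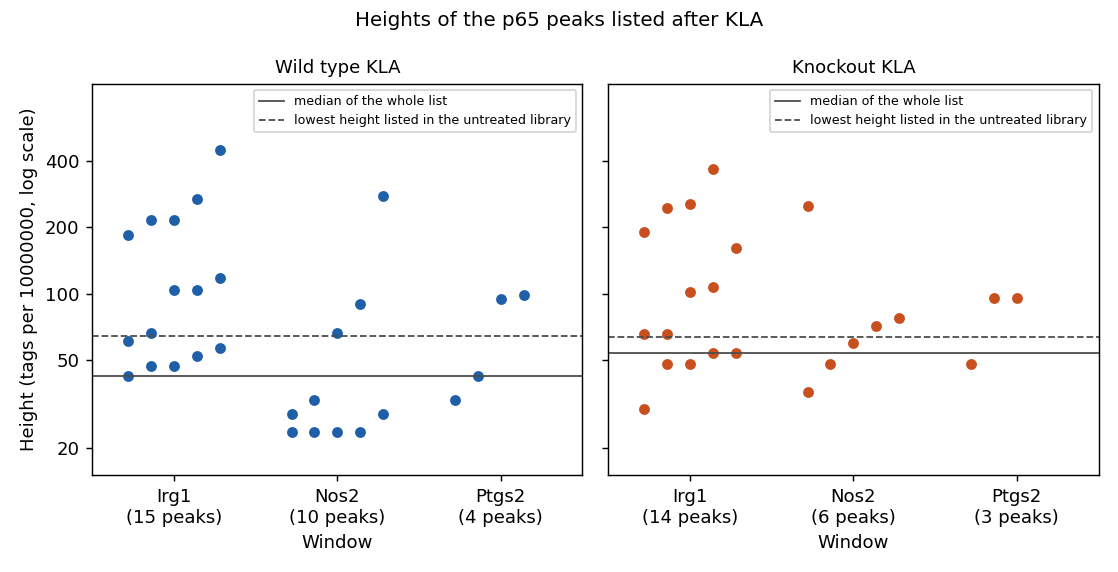
Heights after KLA (vertical axis, tags per 10000000, log scale) of every p65 peak listed in each window, 1 point per peak, with wild type on the left and knockout on the right. The tallest Irg1, Nos2 and Ptgs2 peaks reach 448.0, 278.3 and 99.0 in wild type and 370.5, 251.0 and 95.6 in knockout cells; the solid line is the median of the whole list (42.4 and 53.8) and the broken line the lowest height the untreated library could list (64.3 and 63.6).

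The number of peaks was set beside the whole genome by cutting it into tiles as long as each window. In the wild type KLA list 0.148% of 25645 tiles of 100 kb held 15 peaks or more, as the Irg1 window did, and the mean was 1.17 peaks a tile. In the knockout list 0.0585% of these tiles held 14 or more, with a mean of 0.881. For Nos2, 2.45% of 130 kb tiles held 10 wild type peaks or more and 5.91% held 6 knockout peaks or more. For Ptgs2, 15% of 120 kb tiles held 4 wild type peaks or more and 15.6% held 3 knockout peaks or more. Tiles without genes or without mappable sequence are counted among these. In RefSeq gene order on GRCm38.p6, Lyrm9 comes before Nos2 and Lgals9 and Ksr1 after it, and Pla2g4a and Ptgs2os before Ptgs2 and Ptgs2os2 after it. The gene order around Irg1 was not listed. Peaks were not assigned to one gene within a window, so those of the Irg1 window may also lie at other genes. Pla2g4a, a phospholipase that releases arachidonic acid, acts just before Ptgs2 in prostaglandin synthesis, but the sites of other genes of the nitric oxide, prostaglandin and itaconate pathways were not analysed here, since no mm9 gene positions were used.

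The genotypes were compared after KLA to ask whether p65 binding near the 3 genes differed without NCoR. Of 29 wild type peaks, 20 had a knockout peak that overlapped by 1 bp or more, a share of 69.0% (exact interval 49.2 to 84.7) against 54% over the whole list. In the other direction 20 of 23 knockout peaks (87.0%, 66.4 to 97.2) had a wild type counterpart, against 71.7% over that list. By gene, 12 of 15 wild type peaks were found in the knockout list for Irg1, 5 of 10 for Nos2 and 3 of 4 for Ptgs2. Of the knockout peaks 12 of 14, 5 of 6 and 3 of 3 were found in the wild type list.

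Over the whole lists, peaks with more tags were found more often in the other genotype, and the wild type members followed this order. The knockout members left it only by 7 of 9 against 7 of 8, too few peaks to read as a difference. All 11 wild type peaks with 20 tags or more were found in the knockout list (95.7% over the list), as were 6 of 8 with 10 to 19 tags (73.9%) and 3 of 10 with 5 to 9 tags (33.7%). Of the knockout peaks, 6 of 6 with 20 tags or more (97.7%), 7 of 9 with 10 to 19 (89.2%) and 7 of 8 with 5 to 9 tags (56.2%) had a wild type counterpart. In each of these classes the share over the whole list lay inside the exact Clopper-Pearson interval of the members' share. The Nos2 window, with 7 wild type peaks of 33.0 or lower among its 10, had the lowest share found.

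At the 20 shared sites the median knockout to wild type ratio of heights was 0.961 (0.902 to 1.04, by order statistics), with a range of 0.461 to 1.69. Over all 16203 shared sites the median was 1.09. The height was lower in the knockout at 12 of the 20 sites, against 42% of all shared sites. No ratio was 2 or more, against 6.28% of all shared sites, and no counting interval excluded 1, against 3.09%. By gene, the median ratio was 0.953 at the 12 Irg1 sites, 0.906 at the 5 Nos2 sites and 1.01 at the 3 Ptgs2 sites. Per bp of peak width, which differs between the lists, the median was 0.881 at the members and 0.996 over all shared sites.

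The ratio also went with the tags in the wild type list, an order that is partly built in. The wild type tags are also its denominator, and a shared site had to reach 29.9 in the knockout list. Shared wild type peaks of 23.6 or 28.3 could therefore only be higher in the knockout. The order of the classes is not read as a difference between genotypes. At the 11 members with 20 wild type tags or more the median was 0.913, beside 0.905 over all such sites. At the 6 with 10 to 19 tags it was 0.982, beside 1.00, and at the 3 with 5 to 9 tags 1.52, beside 1.27. At equal tags the members thus lay close to other sites in the first 2 classes, and the third class holds too few sites to read.

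**Figure D3:**
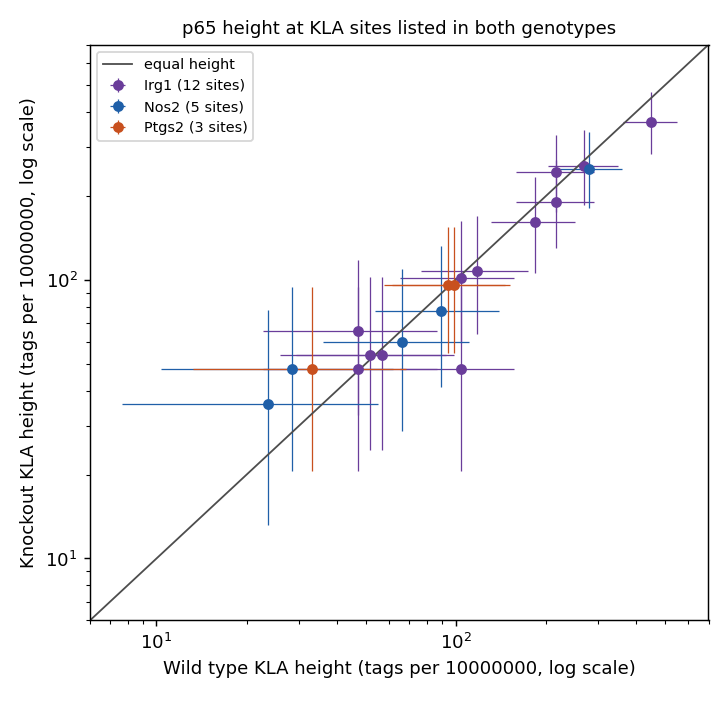
Height after KLA in wild type (horizontal axis) and knockout cells (vertical axis), both in tags per 10000000 on log scales, at the 20 sites listed in both genotypes, with 95% Poisson intervals as bars and the line of equal height. Points follow the line from 23.6 to 448.0 in wild type, and the point farthest below it is the Irg1 site with 103.8 in wild type and 47.8 in knockout cells.

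Shared sites were defined by overlap, so their centres could not lie far apart, and the distance was at most 138 bp over all shared sites. The centres of the shared members lay a median of 20.5 bp apart, against 31 bp over all shared sites, and at most 94 bp. By gene the median distance was 19 bp for Irg1, 17 bp for Nos2 and 70 bp for Ptgs2. The focus ratio, a deposited measure of how well tags on both strands point to the centre, had a median of 0.767 over wild type and 0.745 over knockout members, beside 0.758 and 0.760 over the lists. The knockout list gave its members at most 0.8 scaled input tags. That list held only peaks 4-fold over input, so input low beside the peak was a condition of being listed. No input was used for the KLA list of wild type cells.

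Sums of height run over peaks called separately in each library, so they also move with how many low peaks each list holds. Summed over its listed peaks, the Irg1 window had a height of 2032.6 in wild type (1995 bp covered, 1.02 per bp) and 1798.6 in knockout cells (2030 bp, 0.886 per bp). The ratio was 0.885 (0.761 to 1.03). For Nos2 the sums were 617.9 (1330 bp, 0.465 per bp) and 543.9 (870 bp, 0.625 per bp), with a ratio of 0.880 (0.666 to 1.16). With both lists limited to heights of 29.9 or more the Nos2 ratio was 1.16, and as mean height per bp of covered length it was 1.35, so its direction changed with the peaks and measure used. For Ptgs2 they were 268.7 (532 bp, 0.505 per bp) and 239.0 (435 bp, 0.549 per bp), with a ratio of 0.889 (0.578 to 1.36). As mean height per bp the ratio was 0.870 for Irg1 and 1.09 for Ptgs2, so the direction also turned for Ptgs2. That measure is a mean over the listed peaks, so it also moves with how many low peaks each list holds. Dividing the sums by the fixed peak width of each list instead lowers all 3 ratios by the same factor. It could not turn ratios already below 1 and is no check of their direction. The ratios were then 0.811 for Irg1, 0.807 for Nos2 and 0.815 for Ptgs2. The intervals given above for the 3 ratios of summed height include 1 and cover the tags of the listed peaks only.

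9 wild type and 3 knockout KLA peaks of the windows were listed in 1 genotype only. The tallest of all was a knockout peak in the Nos2 window, chr11:78798457-78798601, with a height of 71.7 (37.1 to 125, 12 tags). Its nearest wild type peak was centred 11402 bp away, and its height was 3.04 times the height at the wild type threshold of 5 tags. It had 0.5 scaled input tags and a focus ratio of 0.556. Another knockout peak, at chr14:103412987-103413131 in the Irg1 window, had 65.7 (11 tags), with the nearest wild type peak 1215 bp away. The third, at chr14:103487454-103487598, had 29.9, the lowest height in its list.

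Of the 9 wild type peaks without a knockout peak, 4 were lower than any height in the knockout list, and all 4 were in the Nos2 window, at 23.6 or 28.3. The tallest 2 were in the Irg1 window. The peak at chr14:103470031-103470163 had 66.0 (36.1 to 111, 14 tags), and a knockout peak of 53.8 was centred 348 bp away. The peak at chr14:103458387-103458519 had 61.3 (32.6 to 105, 13 tags), and its nearest knockout peak lay 10758 bp away. In the Ptgs2 window the peak at chr1:151946750-151946882 had 42.4, and a knockout peak of 95.6 was centred 275 bp away. The other 2, with 42.4 at chr14:103428784-103428916 and 33.0 at chr11:78730057-78730189, had their nearest knockout peaks 3799 and 4146 bp away. A site missing from a list may hold tags below its threshold. The lists were also made unequally. The wild type library held more tags (2120392 against 1673506), and only the knockout list required 4-fold over input. The cause was not tested.

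The single untreated member was a knockout peak at chr1:151891951-151892077 in the Ptgs2 window. Its height of 63.6 (20.7 to 148) rests on 5 tags, the lowest number that list holds. The nearest wild type untreated peak was centred 2484086 bp away. That list held only 702 peaks over the genome and none lower than 64.3, so an equal wild type peak could not have been listed. The closest KLA peak lay 29135 bp away in wild type and 29420 bp away in knockout cells. The untreated knockout peak therefore lies at none of the KLA sites of the Ptgs2 window.

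LXRβ had 2 peaks in the windows, both at Irg1, and none at Nos2 or Ptgs2. The peak at chr14:103407147-103407267 had a height of 8.2 (3.74 to 15.5, 9 tags), the lowest of its list, with 1.4 scaled input tags. It overlapped KLA p65 peaks of 51.9 in wild type and 53.8 in knockout cells, by 17 bp and 34 bp. The peak at chr14:103458342-103458462 had a height of 10.0 (5.00 to 17.9, 11 tags), near the list median of 10.9, with 2.0 scaled input tags. It overlapped by 76 bp the wild type KLA peak of 61.3 that had no knockout counterpart.

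Thus 2 of 2 LXRβ members overlapped a wild type and 1 of 2 a knockout KLA p65 peak, against 42.4% and 34.8% of all LXRβ peaks. With 2 peaks these shares cannot be told from the background. The cells and treatments differ between the lists, so an overlap means a shared position and not binding in the same cell.

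Values at the window edges show what the chosen limits leave out. Each is the peak of its own list nearest the edge, so wild type and knockout values can belong to different sites. Right of the Ptgs2 window, 2182 bp outside it, wild type cells had a KLA peak of 117.9, and 2231 bp outside it knockout cells had 113.5, both taller than any peak inside. The last peaks inside that edge were 94.3 and 95.6. Right of the Nos2 window the first peaks outside had 188.6 in wild type and 179.3 in knockout cells, 12414 and 12436 bp away. The last inside had 28.3 and 71.7, at different sites 32873 and 21471 bp from the edge. Left of the Nos2 window the first outside had 51.9 and 29.9, at different sites 11685 and 27740 bp away. The first inside had 23.6 and 251.0, also different sites, 1725 and 10701 bp from the edge. The 251.0 is at the site where wild type cells had 278.3. Left of the Ptgs2 window the first peaks had 28.3 and 47.8 outside and 42.4 and 95.6 inside. The 95.6 overlaps the wild type peak of 99.0, not that of 42.4. At the Irg1 window the left edge had 66.0 and 41.8 outside and 51.9 and 53.8 inside. The right edge had 216.9 and 191.2 inside, and 23.6 and 149.4 outside, at different sites 55193 and 65812 bp away.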

How the data were processed

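The submitters' processing notes name Bowtie 0.12.7, HOMER and build mm9. Each library's peaks come from findPeaks (factor style) at a false discovery rate of 0.001, with at most 1 tag per bp, 4-fold over the surrounding 10000 bp and, except in the wild type KLA list, 4-fold over input, per the file headers. The deposited signal is the normalized tag count per 10000000 tags. The deposited findPeaks score was used in 1 alternative and as the tags of the LXRβ list, whose signal follows another total than its header gives. The deposited focus ratio is a fraction of tags. The deposited fold over local signal is a ratio, and the deposited p-values were not used.

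Tags were taken back from the signal and library total, and overlap, exact Poisson, Clopper-Pearson and conditional binomial intervals were computed with Python 3.11.15, numpy 2.4.6 and scipy 1.17.1. Matching and intervals were tested on simulated data. Tiles start at the chromosome origin and cover the span of listed peaks.

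Named in full were the tallest KLA sites of each window (up to 5), every untreated and LXRβ peak, and in each window the tallest KLA peak listed in 1 genotype. Other such peaks were named after their values were seen, except 4 low Nos2 peaks given by height alone. The windows, members and lists were chosen with earlier results of these data known. Alternatives were other overlap rules, lowest heights, tag minimums, scalings and window lengths.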

Additional observations from a re-analysis of the deposited data

How the results depend on the processing

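For 12 results, 31 alternative values were computed, of which 27 stayed within 1.5 times a count or within the interval of the value. This tally does not measure robustness. Some alternatives could not move a value, such as the height limit of 29.9 for knockout peaks, which is the lowest height of that list. Others were judged against wide intervals. With 10 tags or more, the peaks in the 3 windows after KLA were 19 in wild type and 15 in knockout cells, in place of 29 and 23. Per bp of peak width, the median knockout to wild type ratio at shared sites was 0.881 in place of 0.961. With both KLA lists limited to heights of 29.9 or more, the ratio of summed heights at Nos2 was 1.16 in place of 0.880. At that limit both genotypes had 23 peaks in the windows and the share found in the other genotype was 78.3% either way, since fewer low wild type peaks remain. The share over the whole lists at that limit is not given here, so 78.3% cannot be set against a background. No paired analysis was possible because each group was 1 sample. Depth limits the lists: untreated binding below a height of 64.3 (wild type) or 63.6 (knockout) was not listed, and sites of 5 to 9 tags have ratio intervals of several fold.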
